A study of Homo sapiens with 6 samples.

Results

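Respiratory complex I is the NADH:ubiquinone oxidoreductase of the inner mitochondrial membrane, and its nuclear-encoded subunits are described here in H460 cells with and without glutamine. The members are the 43 entries, of 24462 gene symbols in the deposited tables, whose symbol begins with NDUFA, NDUFB, NDUFC, NDUFS or NDUFV and a digit, or is NDUFAB1. They comprise 37 genes of complex I subunits, 2 entries of the NDUFA4 family and 4 antisense or readthrough entries. The choice used symbols alone and no measured value. H460 is an established human large-cell lung cancer line. The depleted group (3 libraries) came from cells kept for 24 h in RPMI 1640 without glutamine, with 10% dialyzed serum. The replete group (3 libraries) came from the same line with glutamine, and the labels do not spell out its serum over those hours. Nothing in the labels says whether the libraries of a group are separate cultures, so the p-values rest on the spread among these 3 and 3 libraries alone, and that spread may be technical.

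Complex I oxidises NADH made by the tricarboxylic acid cycle, passes the electrons over a flavin and a chain of iron-sulfur clusters to ubiquinone, and pumps protons. Its peripheral arm holds the N module, where NADH is oxidised, and the Q module, where ubiquinone is reduced, and its membrane arm has a proximal and a distal part that pump protons around mitochondrially encoded subunits, which were not analysed here. The catalytic core subunits are shared with bacteria, and the remaining accessory subunits surround them. Glutamine is a main carbon source of the tricarboxylic acid cycle in many cultured cancer cells.

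Each library held between 7550849 and 10914899 counts, and levels are given in CPM, counts scaled to a library total of 1000000. An entry at 0 could hide up to 3 counts, or 0.275 to 0.397 CPM, by counting error alone. Depleted replicate 2 stood apart from the other depleted libraries, since chi-square divided by its degrees of freedom was 19.4 and 11.7 against replicates 1 and 3, while for the 4 other pairs within a group it ran from 1.51 to 3.92. The threshold was a Benjamini-Hochberg adjusted p of 0.05 by the quasi-likelihood method of edgeR, and 78.6% of the 12739 genes lay under it, so passing was the usual outcome in this comparison. The 6 epithelial markers listed summed to 795 to 921 CPM in depleted and 2076 to 2101 CPM in replete libraries, with EPCAM and CDH1 at no more than 0.505 CPM. The keratins of that list did not move together: KRT19 and KRT8 fell by 1.87 and 1.05 on the log2 scale, KRT7 rose by 2.32 from 8.94 to 38.2 CPM, and KRT18 did not pass (−0.06). Blood cell markers (5 genes) summed to 0.923 to 1.37 CPM in depleted and 2.10 to 4.04 CPM in replete libraries, fibroblast markers (5 genes) to 16.8 to 86.1 CPM and 18.1 to 29.1 CPM, and endothelial markers (3 genes) to at most 0.126 CPM with VWF and CDH5 at 0. The highest fibroblast sum was in depleted replicate 3, where COL1A1 stood at 56.5 CPM. The part of these markers in the results was not tested.

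All 37 complex I genes passed the filter on low counts. After a day without glutamine 20 of them fell and 10 rose, and 7 did not pass the test, where 39.4% of all tested genes fell and 39.1% rose. The median log2 fold change was −0.24 (range −3.71 to 0.63), against −0.02 over all tested genes. Genes of higher level differed from that background. Among the 6708 tested genes at or above the lowest mean CPM of a complex I gene (18.5), 35.7% fell and 47.2% rose, with a median of 0.16. Falls of more than 2-fold occurred in 3 subunits, NDUFB10, NDUFS3 and NDUFS5, and no subunit rose by more than 2-fold, where 23.7% of all tested genes fell and 21.8% rose by that much (45.4% in either direction). The CPM ranges of the groups did not overlap for 30 subunits, 24 lower and 6 higher in depleted libraries, where 81.0% of all tested genes did not overlap, 47.8% lower and 33.2% higher. Together the 37 transcripts made up 4972 ± 35.6 CPM in depleted and 6658 ± 9.71 CPM in replete libraries (mean ± SD, n = 3 each). The depleted libraries held 4983, 5000.3 and 4932 CPM and the replete libraries 6647, 6666 and 6661 CPM. The summed level was thus lower in each depleted library than in each replete library. These sums use library totals and not the scaling of the fold changes. The ratio of the summed means was 0.747, against 0.717 for assembly factors and 0.806 for ATP synthase. It was 0.820 for complex III, 0.877 for complex II and 0.876 for complex IV, but 1.53 for ubiquinone synthesis genes and 1.31 for biogenesis regulators. CPM is a share of the library total, so these values do not show whether the amount of these transcripts per cell fell. In bulk samples a lower share in every cell and in only part of the cells cannot be told apart.

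CPM values use library totals, whereas fold changes use trimmed-mean (TMM) factors, which assume that most genes do not differ. With library totals alone the median gene moved by −0.23 on the log2 scale, 23 complex I genes fell and 7 rose, where 46.5% of all tested genes fell and 32.4% rose under that scaling. Their median was then −0.47, against −0.25 over all tested genes. None of the 30 called subunits took the opposite sign under any of the 16 alternatives tried. NDUFS6, NDUFA11 and NDUFC1 no longer passed as higher with library totals alone, while NDUFB1, NDUFB6 and NDUFB7 then passed as lower.

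**Figure D1:**
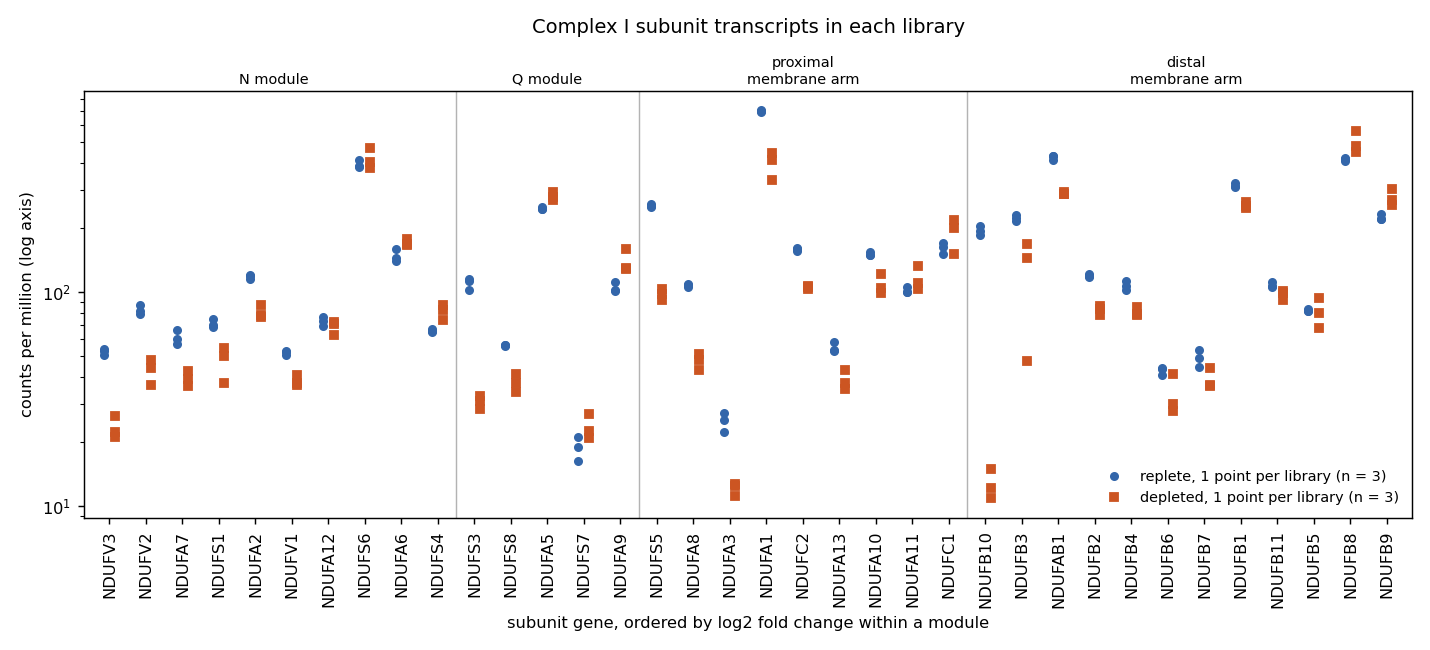
CPM (log axis) of complex I subunit genes in each library, without 1 gene not reported here, ordered by log2 fold change within the N module, the Q module and the proximal and distal membrane arm. Circles are the 3 replete and squares the 3 depleted libraries; the depleted points of NDUFB10 lie between 10.8 and 14.9 CPM and its replete points between 184 and 203 CPM.

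The largest change was that of NDUFB10, an accessory subunit of the distal membrane arm with disulfide-bonded cysteines that face the intermembrane space. It stood at 12.2, 14.9 and 10.8 CPM in the depleted libraries and at 193, 203 and 184 CPM in the replete libraries. Its highest depleted value was far under its lowest replete value. The log2 fold change was −3.71 (standard error, SE, of 0.11, with an adjusted p of 1.44e-11), or 13.1-fold lower, which placed it at the 1.48th percentile of all tested genes ranked by log2 fold change. No counted gene overlaps its exons in GENCODE 29, although the name tables list 2 pseudogenes for it, with which reads could be shared.

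NDUFS3, a core subunit of the Q module that joins the iron-sulfur subunits to the quinone site, had the next largest change. Its depleted libraries held 28.5, 32.8 and 30.9 CPM and its replete libraries 114, 102 and 113 CPM, with no overlap. It fell by 1.61 on the log2 scale (SE 0.09, adjusted p = 4.13e-09), or 3.06-fold. Its exons overlap those of PTPMT1 on the same strand (longest overlap 367 bases in GENCODE 29), a mitochondrial phosphatase gene that fell by 0.52 from 56.5 ± 1.80 to 33.7 ± 1.19 CPM (adjusted p = 0.000126). They also overlap those of the RNA-binding protein gene CELF1 on the other strand (234 bases), which rose by 0.82 (adjusted p = 4.35e-06), and the part of shared reads was not tested.

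NDUFS5, a cysteine-rich accessory subunit of the proximal membrane arm, stood at 98.3, 103 and 92.2 CPM in depleted and at 249, 259 and 252 CPM in replete libraries. Every depleted library was lower, and the log2 fold change was −1.15 (SE 0.07, adjusted p = 1.22e-08), or 2.21-fold lower. The name tables list 6 pseudogenes for NDUFS5.

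The other core subunits of the Q module described here moved in opposite directions. NDUFS8, which carries iron-sulfur clusters near the quinone site, stood at 37.6, 41.3 and 33.9 against 56.5, 56.1 and 56.8 CPM in replete libraries and fell by 0.36 (adjusted p = 0.00458). NDUFS7, which binds the last iron-sulfur cluster before ubiquinone, went the other way, at 20.9, 26.9 and 22.4 CPM in depleted and 16.2, 21.0 and 18.8 CPM in replete libraries. Its log2 fold change was 0.55 (SE 0.14, adjusted p = 0.00302), but the lowest depleted and the highest replete value overlapped.

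The 3 core subunits of the N module all fell, by less than NDUFS3. NDUFV2, an iron-sulfur subunit next to the flavin, stood at 36.6, 48.0 and 44.1 CPM in depleted and 78.9, 81.8 and 87.0 CPM in replete libraries (log2 fold change −0.72, SE 0.11, adjusted p = 3.89e-05). NDUFS1, the largest subunit of the peripheral arm and the carrier of several iron-sulfur clusters, stood at 54.9, 37.6 and 50.3 CPM in depleted and 68.6, 74.8 and 70.3 CPM in replete libraries (−0.35, SE 0.12, adjusted p = 0.0167). NDUFV1, which binds NADH and the flavin, stood at 37.5, 41.1 and 36.6 CPM in depleted and 53.2, 52.4 and 51.0 CPM in replete libraries. In none of these 3 genes did the groups overlap in CPM. For NDUFV1 the log2 fold change was −0.22 (SE 0.09, adjusted p = 0.0459), and it passed in only 1 of the 6 fits that left out a library, the one without depleted replicate 2 (adjusted p from 0.0748 to 0.157 in the other 5). NDUFS1 missed the threshold without replete replicate 2 (adjusted p = 0.0622), and its log2 fold change was −0.20 (adjusted p = 0.0155) without depleted replicate 2, its lowest library.

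**Figure D2:**
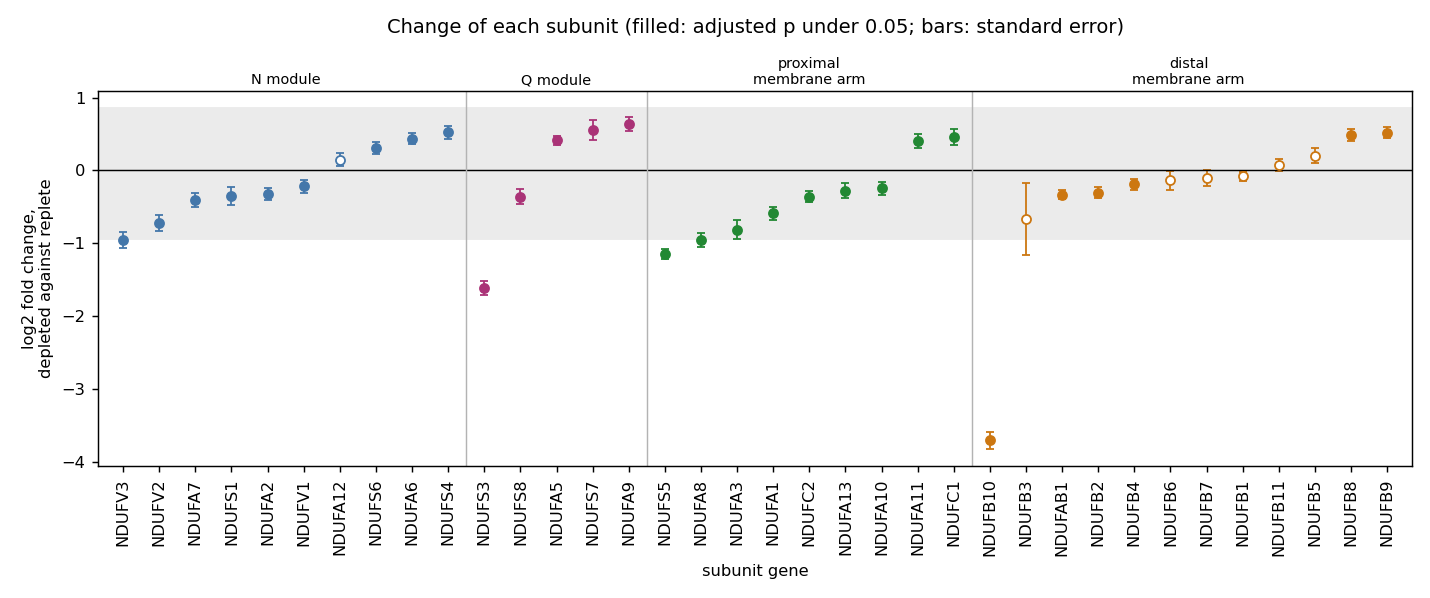
Log2 fold change (depleted against replete, TMM scaling) of complex I subunit genes by module, without 1 gene not reported here, with bars for the standard error, filled points for an adjusted p under 0.05 and a grey band for the middle of all tested genes (25th to 75th percentile, −0.94 to 0.86). NDUFB10, NDUFS3 and NDUFS5 lie below the band along with NDUFV3 at −0.96 and NDUFA8 at −0.95, and no subunit lies above it.

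Of the accessory subunits of the N module NDUFV3, NDUFA7 and NDUFA2 fell and NDUFS4, NDUFA6 and NDUFS6 rose. NDUFV3, a small subunit bound to the flavin site subunits, fell from 52.7 ± 1.82 to 23.2 ± 2.88 CPM (log2 fold change −0.96, adjusted p = 3.06e-06). NDUFA7 and NDUFA2 fell by 0.41 and 0.32. NDUFS4, which stabilises the N module and is mutated in Leigh syndrome, was higher in every depleted library, at 82.0, 87.1 and 74.3 CPM against 67.1, 65.7 and 65.0 CPM (0.53, SE 0.09, adjusted p = 9.75e-05). NDUFA6, a protein of the LYR family that anchors an acyl carrier protein, rose by 0.43 from 147 ± 10.1 to 170.0 ± 5.60 CPM. NDUFS6, which binds zinc, had overlapping groups in CPM, at 418 ± 47.4 in depleted and 396 ± 16.5 in replete libraries (0.31, adjusted p = 0.00458). NDUFA12, at the joint of the N and Q modules, did not pass (0.15, adjusted p = 0.141), at 72.5, 70.8 and 63.2 CPM in depleted and 76.3, 73.0 and 69.0 CPM in replete libraries.

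Both accessory subunits of the Q module rose, while of its core subunits NDUFS3 and NDUFS8 fell and NDUFS7 rose. NDUFA9, a dehydrogenase-like subunit next to the quinone site, had the largest rise of all 37 genes, at 128, 159 and 129.7 CPM in depleted and 102, 101 and 112 CPM in replete libraries. Its groups did not overlap (log2 fold change 0.63, SE 0.10, adjusted p = 5.50e-05). NDUFA5 rose by 0.41 from 246 ± 3.09 to 279.8 ± 11.6 CPM (adjusted p = 6.14e-05), with 12 pseudogenes listed under its name.

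In the proximal membrane arm 7 of 9 subunits fell and NDUFC1 and NDUFA11 rose, where 39.4% of all tested genes fell and 39.1% rose. NDUFA8, like NDUFS5 an intermembrane-space subunit with paired cysteines, fell by 0.95 from 108 ± 1.62 to 47.6 ± 4.32 CPM (adjusted p = 5.09e-07). NDUFA3 fell by 0.82 and NDUFA1, an X-linked subunit needed for assembly of the membrane arm, by 0.59 from 699.6 ± 5.36 to 398 ± 58.6 CPM. NDUFC2 fell by 0.36, NDUFA13, also called GRIM-19, by 0.28 and NDUFA10 by 0.24. NDUFA13 missed the threshold when depleted replicate 1 was left out (adjusted p = 0.0667), and likewise for depleted replicate 3 (0.121) or replete replicate 2 (0.0741), while NDUFA10 missed it without depleted replicate 1 (0.0635), depleted replicate 3 (0.126) or replete replicate 3 (0.0764). The rises of NDUFC1 (0.46, adjusted p = 0.00281) and NDUFA11 (0.41, adjusted p = 0.00186) came with overlapping CPM ranges and did not pass with library totals alone (adjusted p = 0.0913 and 0.0993).

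In the distal membrane arm 4 of 12 subunits fell, 2 rose and 6 did not pass. Over all tested genes 39.4% fell and 39.1% rose. Beside NDUFB10, NDUFAB1, the mitochondrial acyl carrier protein that also serves fatty acid and lipoate synthesis, fell by 0.33 from 427 ± 9.66 to 289.7 ± 3.62 CPM (adjusted p = 0.000252). NDUFB2 fell by 0.30 and NDUFB4 by 0.19 (adjusted p = 0.0440). NDUFB4, with 12 pseudogenes listed under its name, missed the threshold when depleted replicate 1 was left out (adjusted p = 0.108), and likewise for depleted replicate 3 (0.0505), replete replicate 2 (0.130) or replete replicate 3 (0.0850). NDUFB9, a LYR protein that anchors an acyl carrier protein, rose by 0.52 from 224 ± 7.5 to 274 ± 24.6 CPM, and NDUFB8, which is often used as a marker of assembled complex I, rose by 0.49 from 416 ± 6.47 to 499 ± 59.8 CPM. Both were higher in each depleted than in each replete library. Exons of NDUFB8 overlap those of HIF1AN on the other strand (longest overlap 325 bases), which rose by 1.19 from 48.8 to 95.2 CPM. Those of NDUFB9 overlap TATDN1 (187 bases), which rose by 0.36, and MTSS1 (426 bases), which did not pass the filter on low counts, both on the other strand. The part of shared reads was not tested.

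The 6 distal subunits that did not pass were NDUFB1, NDUFB3, NDUFB5, NDUFB6, NDUFB7 and NDUFB11. NDUFB1 stood at 262, 247 and 252 CPM in depleted and 322, 309 and 313 CPM in replete libraries (log2 fold change −0.08, adjusted p = 0.254). NDUFB11, an X-linked subunit, stood at 91.3, 101 and 98.6 CPM in depleted and 111, 107 and 105 CPM in replete libraries (0.07, adjusted p = 0.404). In both genes the CPM of every depleted library was lower although the TMM fold change was near 0, and only for NDUFB1 did the difference pass with library totals alone (adjusted p = 0.000571, against 0.0819 for NDUFB11). NDUFB7 stood at 36.6, 44 and 36.5 CPM in depleted and 49.0, 44.5 and 53.5 CPM in replete libraries (−0.10, adjusted p = 0.414). NDUFB6 stood at 41.5, 27.7 and 30.1 CPM in depleted and 44, 43.4 and 40.9 CPM in replete libraries (−0.14, adjusted p = 0.359). NDUFB5 stood at 94.2, 68.2 and 79.8 CPM in depleted and 81.5, 81.3 and 83.2 CPM in replete libraries (0.21, adjusted p = 0.0898). Depleted replicate 2 was the lowest library for NDUFB5, whereas for NDUFB6 depleted replicate 1 stood above the others, and NDUFB6 passed as lower when that library was left out (−0.33, adjusted p = 0.0137).

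NDUFB3, a small distal membrane arm subunit, was the gene on which the depleted libraries differed most. It held 168, 47.5 and 144 CPM in depleted and 229, 214 and 223 CPM in replete libraries. Depleted replicate 2 was at 0.305 of the mean of the other depleted libraries, and with it the log2 fold change was −0.66 (SE 0.50, adjusted p = 0.281). Without that library it was −0.28 (adjusted p = 8.18e-05), so NDUFB3 then passed as lower, as NDUFB5 passed as higher (0.32, adjusted p = 0.000127). With those genes 21 subunits fell and 11 rose. Calls also increased over all tested genes, where 5368 fell and 5257 rose without that library, against 5025 and 4987 with it. All 30 calls made with the 6 libraries kept their direction and passed without depleted replicate 2.

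The other subunits of depleted replicate 2 lay on both sides of the remaining depleted libraries. It was the lowest depleted library for 12 of 37 subunits and the highest for 24. After NDUFB3 the lowest ratios to the mean of replicates 1 and 3 were those of NDUFS1 (0.714), NDUFC1 (0.727), NDUFA1 (0.773), NDUFB6 (0.774) and NDUFB5 (0.783), and the highest was that of NDUFB10 (1.29). The coefficient of variation of CPM over 3 libraries had a median of 9.09% in the depleted group (1.25% to 53.1% over the 37 genes) and of 3.24% in the replete group (0.659% to 12.9%). The values of NDUFB3 set the upper end in the depleted group and those of NDUFS7 in the replete group.

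**Figure D3:**
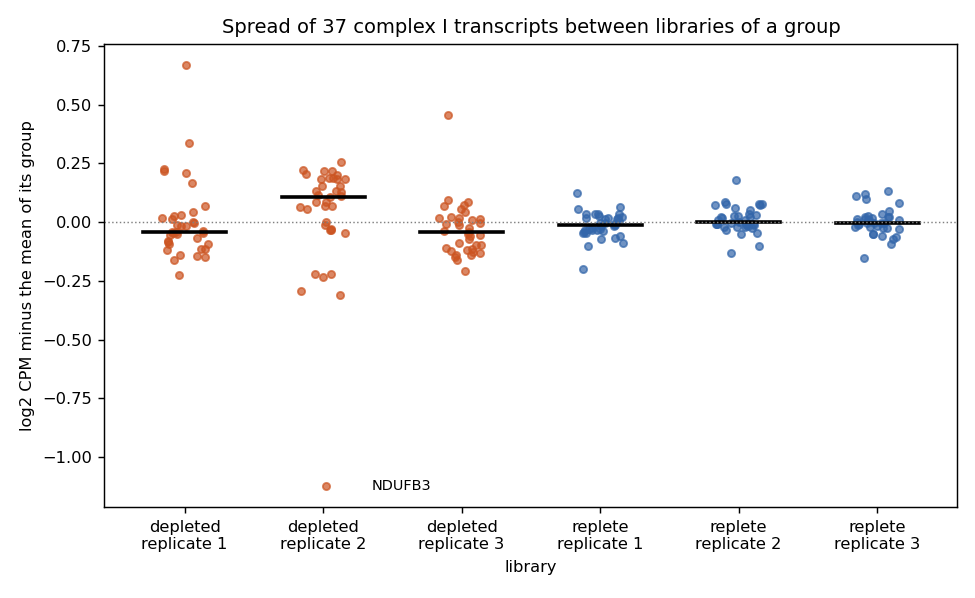
Deviation of each complex I gene's log2 CPM (TMM scaling, prior count 2) from the mean of its group in each library, with 1 point per gene and a bar at the median of the 37 genes. The points of depleted replicate 2 have a median of 0.11 and include NDUFB3 far below the rest, while the medians of the 3 replete libraries lie between −0.01 and 0.00.

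The remaining 6 entries are not complex I subunit genes. NDUFA4, whose product was long counted with complex I and is now placed in cytochrome c oxidase, stood at 433, 385 and 399.8 CPM in depleted and 384, 407 and 393 CPM in replete libraries. The ranges overlapped, and its log2 fold change of 0.27 (adjusted p = 0.00245) was 0.04 with library totals alone (adjusted p = 0.582). Its paralogue NDUFA4L2, a target of hypoxia-inducible factor, was lower in each depleted library, at 3.57, 5.27 and 4.73 CPM against 9.75, 9.98 and 9.67 CPM (log2 fold change −0.90, SE 0.19, adjusted p = 0.000593). Over the groups NDUFA4L2 had 126 and 240 counts, a ratio per total count of 0.454 with a 95% exact counting interval of 0.363 to 0.566. Its exons overlap those of SHMT2 on the other strand, a gene that fell by 1.31 (adjusted p = 1.58e-06).

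The readthrough entry NDUFC2-KCTD14 was lower, at 0.505 ± 0.300 CPM in depleted and 2.29 ± 1.19 CPM in replete libraries (log2 fold change −1.90, adjusted p = 0.00341), and shares exons with NDUFC2. The antisense entry NDUFB2-AS1 was lower, at 2.0 ± 0.342 against 4.34 ± 0.151 CPM (−0.88, adjusted p = 0.00482), and overlaps NDUFB2. NDUFA6-AS1 and NDUFV2-AS1 did not pass the filter on low counts. NDUFA6-AS1 had 3 counts over the depleted and 8 over the replete libraries, a ratio of 0.324 (95% exact interval 0.0554 to 1.35). NDUFV2-AS1 had 18 and 7 counts, a ratio of 2.22 (0.887 to 6.30). Both intervals include equal levels.

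The promoters of the subunit genes show features that the choice of members did not use. RefSeq (GRCh38.p14) promoters of 250 bases before to 50 after the start were matched for 32 of the 37 genes by symbol, with the first entry taken per gene. They were searched on both strands for core letters of 3 factors tied to genes of respiration. AANATGGCG, the core of the YY1 motif, was found in 10 of 32 promoters (31.2%), where 3.19% of 35116 promoters of that length hold it. The NRF1 core, GCGCA and GCGC with 1 base of any kind between them, was found in 6 (18.8%, against 5.78%), and the ETS core CCGGAAG in 5 (15.6%, against 10.3%). At least 1 of the 3 was found in 18 promoters (56.2%, against 17.1%), and matches of different motifs did not overlap. The YY1 core occurred in 5 of 9 subunits that rose, 5 of 17 that fell and 0 of 6 that did not pass. The 35116 promoters were all entries, not limited by the search to 1 per gene or to coding genes, so they are an unlike set. The YY1 matches lay between bases 9 and 50 after the start, except that of NDUFS8, which lay before it. Whether these letters belong to coding sequence was not tested. A match is a description of the letters and not a bound site.

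The promoters of the subunits with the largest falls and rises among those matched are shown, with motif letters in capitals.
NDUFB10 (chr16:1959288-1959587, plus strand): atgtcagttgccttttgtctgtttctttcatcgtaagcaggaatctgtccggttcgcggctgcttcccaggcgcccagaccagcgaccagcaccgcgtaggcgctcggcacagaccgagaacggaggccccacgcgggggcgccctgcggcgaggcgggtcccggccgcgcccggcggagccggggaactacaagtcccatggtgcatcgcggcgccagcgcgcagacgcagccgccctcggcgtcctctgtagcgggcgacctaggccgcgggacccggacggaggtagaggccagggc
NDUFS3 (chr11:47578824-47579123, plus strand): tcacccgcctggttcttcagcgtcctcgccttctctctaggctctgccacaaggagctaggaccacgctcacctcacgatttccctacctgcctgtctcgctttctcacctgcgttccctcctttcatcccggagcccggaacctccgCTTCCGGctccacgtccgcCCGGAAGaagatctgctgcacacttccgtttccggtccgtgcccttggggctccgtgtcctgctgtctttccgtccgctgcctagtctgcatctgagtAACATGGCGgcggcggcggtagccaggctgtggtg
NDUFS7 (chr19:1383657-1383956, plus strand): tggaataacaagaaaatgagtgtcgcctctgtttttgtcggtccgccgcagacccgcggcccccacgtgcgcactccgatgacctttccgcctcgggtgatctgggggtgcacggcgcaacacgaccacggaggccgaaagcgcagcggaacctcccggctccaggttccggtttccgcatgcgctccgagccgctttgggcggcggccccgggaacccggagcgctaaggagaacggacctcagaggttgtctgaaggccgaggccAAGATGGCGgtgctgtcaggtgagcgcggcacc
NDUFA9 (chr12:4648864-4649163, plus strand): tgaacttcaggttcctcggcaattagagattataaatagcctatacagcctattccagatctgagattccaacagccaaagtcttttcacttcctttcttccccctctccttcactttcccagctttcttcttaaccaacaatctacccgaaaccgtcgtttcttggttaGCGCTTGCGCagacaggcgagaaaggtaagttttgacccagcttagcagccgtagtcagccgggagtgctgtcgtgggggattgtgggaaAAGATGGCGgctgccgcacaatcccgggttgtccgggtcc
NDUFB10, the subunit that fell most, has none of the 3 cores in this window. NDUFS3, which fell, has an ETS core at −102 to −96 on the opposite strand and another at −83 to −77, and a YY1 core at 16 to 24, counted from the start. NDUFS7, which rose, has a YY1 core at 18 to 26. NDUFA9, with the largest rise, has an NRF1 core at −80 to −71 on the opposite strand and a YY1 core at 11 to 19. The YY1 core was thus found in promoters of a subunit that fell and of subunits that rose.

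Complex I is built with the help of assembly factors that are not part of the mature enzyme. Of the 19 listed factors 10 fell and 2 rose (39.4% and 39.1% of all tested genes), with a median log2 fold change of −0.45. With library totals alone 13 fell and 1 rose (46.5% and 32.4% of all tested genes). DMAC1 (listed as TMEM261), which takes part in building the distal membrane arm, fell by 1.27 from 94.5 ± 2.64 to 33.6 ± 2.24 CPM (adjusted p = 2.70e-08). NDUFAF3, which acts on the Q module, fell by 1.51 from 80.3 ± 0.990 to 24.2 ± 4.40 CPM (adjusted p = 1.05e-07). NDUFAF4, a partner of NDUFAF3 in that step, rose by 0.73 from 40.3 ± 6.40 to 57.3 ± 1.20 CPM (adjusted p = 4.40e-05). TMEM126B, of the membrane arm assembly complex, had a log2 fold change of 0.28 (adjusted p = 0.0242) with overlapping CPM ranges. The change was 0.05 with library totals alone (adjusted p = 0.657). TMEM126B also missed the threshold without depleted replicate 3 (adjusted p = 0.0724) or without replete replicate 1 (0.0845), 2 (0.0921) or 3 (0.0690).

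Iron-sulfur clusters, which several core subunits carry, are made with the help of mitochondrial iron-sulfur cluster genes. Of these 14 genes 7 fell and 4 rose (median −0.18), where 39.4% of all tested genes fell and 39.1% rose. GLRX5, a glutaredoxin that passes clusters on, fell by 1.69 from 229 ± 4.79 to 60.5 ± 3.29 CPM. IBA57, which acts late in the making of larger clusters, rose by 2.70 from 6.39 ± 1.57 to 35.5 ± 3.46 CPM (adjusted p = 7.32e-09), and FDX2 (listed as FDX1L), the ferredoxin of cluster synthesis, rose by 1.26.

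Among 13 ubiquinone synthesis genes, which make the electron acceptor of complex I, 6 rose and 4 fell (39.1% and 39.4% of all tested genes). With library totals alone 4 rose and 4 fell (32.4% and 46.5% of all tested genes), and the median of 0.17 was −0.05. COQ10B, a ubiquinone-binding protein, rose by 2.29 from 40.3 ± 2.11 to 168 ± 4.53 CPM (adjusted p = 5.32e-11), and COQ2, which attaches the isoprenoid tail, rose by 1.01. COQ8A (listed as ADCK3), an atypical kinase of the pathway, fell by 3.85 from 15.6 ± 3.06 to 0.879 ± 0.461 CPM, and COQ6 fell by 1.08. Of 7 tested dehydrogenases that feed ubiquinone by other routes, 5 fell and 1 rose (median −0.80), where 39.4% of all tested genes fell and 39.1% rose. ETFA, the electron transfer flavoprotein subunit, rose by 0.63, while GPD2, the mitochondrial glycerol-3-phosphate dehydrogenase, fell by 0.81 and SQOR (listed as SQRDL), the sulfide oxidoreductase, by 1.11.

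Subunits of the other respiratory complexes were counted in the same way, beside 39.1% higher and 39.4% lower over all tested genes. Complex IV had 4 higher and 1 lower of 10 subunits, a split that turned to 1 higher and 4 lower with library totals alone (median 0.15, or −0.08), where 32.4% of all tested genes were higher and 46.5% lower. COX7A2 rose by 0.53 and COX7C fell by 0.32 under TMM scaling and kept these calls with library totals alone, while COX8A (0.32) did not (0.09, adjusted p = 0.215). Complex III had 2 higher and 3 lower of 9 subunits, or 1 and 5 with library totals alone, with the iron-sulfur protein UQCRFS1 higher by 0.62, UQCRH at −0.28 and UQCRC2 at −0.23. UQCR10 (0.27) did not pass with library totals alone (0.04), and UQCRC2 had an adjusted p of 0.0585 when depleted replicate 3 was left out. Complex II, the succinate dehydrogenase, had 1 higher and 2 lower of 4, or 0 and 2 with library totals alone, with SDHB at −0.63, SDHA at −0.27 and SDHC at 0.33, the last of which did not pass with library totals alone (0.10, adjusted p = 0.285). ATP synthase had 2 higher and 9 lower of 15, or 1 and 12 with library totals alone, with ATP5F1A (listed as ATP5A1) at −1.20, from 252 ± 2.52 to 93.8 ± 9.51 CPM, and ATP5PF (listed as ATP5J) at −0.65. ATP5PB (listed as ATP5F1) rose by 0.49, and ATP5MG (listed as ATP5L, 0.28) did not pass with library totals alone (0.06). No test compared these lists with complex I.

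**Figure D4:**
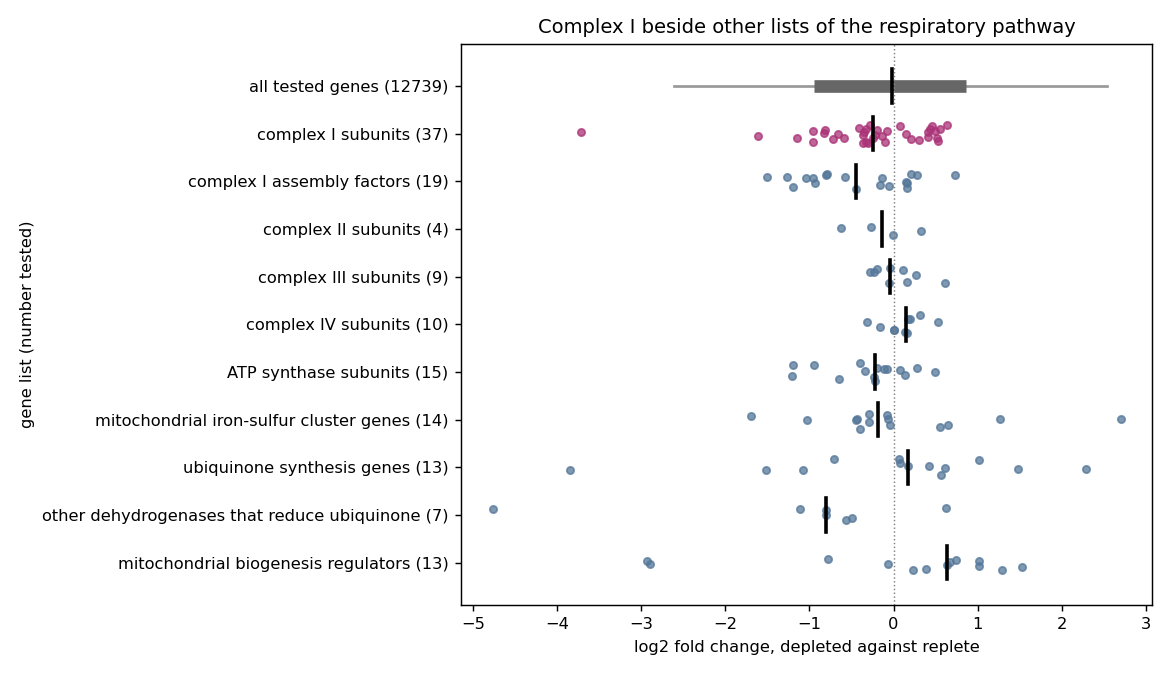
Log2 fold change (depleted against replete, TMM scaling) of each tested gene of complex I and of the other lists, with a black bar at each list's median and the number of genes tested in parentheses. For all 12739 tested genes the thick bar spans the 25th to 75th and the thin line the 5th to 95th percentile; the median of complex I lies at −0.24 and that of the biogenesis regulators at 0.64.

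Regulators of mitochondrial biogenesis drive or coactivate nuclear genes of respiration and the mitochondrial genome. Of 13 listed, 8 rose and 3 fell (median 0.64), where 39.1% of all tested genes rose and 39.4% fell. With library totals alone 6 rose and 3 fell (median 0.41), where 32.4% of all tested genes rose and 46.5% fell. TFAM, which packages mitochondrial DNA and activates its transcription, rose by 1.53 from 89.1 ± 5.35 to 220.3 ± 39.4 CPM (adjusted p = 1.11e-07), and the coactivator PPRC1 rose by 1.02. The coactivator PPARGC1B fell by 2.93 from 7.06 ± 0.773 to 0.788 ± 0.139 CPM and POLRMT, the mitochondrial RNA polymerase, fell by 2.89 from 4.14 ± 0.911 to 0.491 ± 0.417 CPM, both under 1 CPM in each depleted library. YY1 rose by 0.74 from 56.1 to 80.3 CPM and NRF1 fell by 0.78 from 12.3 to 6.10 CPM.

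Across the 37 complex I genes the log2 fold change had a Spearman rho of −0.13 with transcript GC content and of 0.20 with transcript length in GENCODE 29, against −0.16 and 0.07 over 12003 tested genes with a matched transcript. Its rho with the replete CPM was −0.06, against −0.10 over those genes. These correlations are across genes of the same libraries, which are not independent replicates, and the replete level also enters the fold change.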

How the data were processed

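Lexogen QuantSeq 3′ mRNA libraries, whose reads come from transcript ends, were made from 500 ng of TRIzol-purified total RNA, per the labels' protocols. Bowtie2, edgeR and the build hg19 are named, with no role, in the submitters' processing notes. The counter, its annotation and its use of strand are not given in the sources used here. Each deposited file gives unnormalized counts for 1 library by gene symbol, as checked on the values. Counts of symbols on several entries were summed, which touched 0 complex I entries.

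Genes kept by filterByExpr (minimum count 10, minimum total 15) were scaled by TMM factors (0.917 to 0.929 in depleted, 1.08 to 1.09 in replete libraries). They were tested in edgeR 4.0.16 (R 4.3.3) by its quasi-likelihood F-test with robust fitting, two-sided, with Benjamini-Hochberg adjustment over 12739 genes at 0.05. The fit was also run on simulated counts in which few genes were changed. Those counts meet the TMM assumption that most genes do not differ, so that assumption was not tested. CPM uses library totals, and 3′ counts were not divided by length, so levels are compared within a gene only. The 16 alternatives included DESeq2 1.42.0 and limma 3.58.1, and using the largest entry per symbol was added after seeing the data.

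Genes, lists and the naming rule were chosen with earlier results of these data known. The rule gave values in every library for core subunits, subunits with a change over 2-fold, the 3 largest changes each way, those not passing and the NDUFA4 family. Of each other list it took the 2 smallest p in each direction. In all, 1 subunit and 1 gene of another list that the rule names are counted but not reported here. YY1, NRF1, PTPMT1, CELF1, SHMT2, HIF1AN, TATDN1 and MTSS1 were named after their values were seen. Genome coordinates are given only for RefSeq promoters on GRCh38.p14, a different build from that of the counts, and GENCODE 29 served for exon overlaps and transcript features.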

Additional observations from a re-analysis of the deposited data

How the results depend on the processing

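Of the 30 complex I subunits called, 26 to 30 passed in the same direction under every alternative except a test against 1.5-fold (glmTreat). Of the 37 subunits that test called 7 lower (NDUFB10, NDUFS3, NDUFS5, NDUFA8, NDUFV3 and NDUFA3 among them) and 0 higher. Over all 12739 tested genes it called 3455 lower and 3324 higher. Among the other lists it called 10 higher and 20 lower in place of 30 and 44 of 104 genes. In those lists library totals alone called 19 higher and 58 lower, and upper quartile factors 19 and 55. Over all tested genes library totals alone called 4132 higher and 5925 lower, and upper quartile factors 4188 and 5866. The median log2 fold change of complex I was −0.47 with library totals alone, −0.45 with upper quartile factors and −0.34 with a mean CPM of at least 10. Against the main fit the log2 fold changes of all genes shifted by a median of −0.23, −0.21 and −0.10. The last setting is a filter, which changes the set of tested genes, and under it 3484 genes were lower and 3472 higher. When each library was left out in turn, 10 to 11 subunits rose and 16 to 21 fell, the median ran from −0.28 to −0.21, and 23 to 34 genes of the other lists rose and 39 to 48 fell. Over all tested genes 4691 to 5257 rose and 4826 to 5368 fell in those fits. The deviations of same-numbered libraries correlated at 0.119, 0.00611 and 0.0366. Depleted replicates 1 and 3 each correlated best with the replete library of their own number, but depleted replicate 2 did so with replete replicate 3 (0.0458). As the numbers did not match throughout, they were not taken as pairs. With a replicate block 10 subunits rose and 18 fell, without NDUFB4 and NDUFV1, and 30 genes of the other lists rose and 45 fell. Over all tested genes 4941 rose and 4999 fell with that block. Reads shared with pseudogenes or with genes on either strand, which touch 15 subunits with overlapping exons, could not be separated at the level of deposited counts.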

Other observations

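A group of subunits chosen after their values were seen consists of those that carry disulfide-bonded cysteine pairs in the intermembrane space: NDUFB10, NDUFS5, NDUFA8 and NDUFB7. The first 3 had log2 fold changes of −3.71, −1.15 and −0.95 and were among the 5 largest falls of the 37 complex I genes, whereas NDUFB7 stood at −0.10 (adjusted p = 0.414). No test was made of this group, because it was formed from these values.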
